A study of Mus musculus with 6 samples.

Results

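Liver secretory genes were examined in embryonic mouse spleen as a check for tissue that adjoins the organ. The set was given as 34 genes, most of which encode proteins that liver cells release into the blood. A gene was represented by the probe set that names it alone, and by the brightest such probe set over the 6 arrays where there were several. On that rule 33 of the 34 genes were found among the 18710 genes tested. No probe set carried the symbol Vtnr, and that gene was left out. It may stand for Vtn (vitronectin), which a wider list holds and which was not called (log2 fold change 0.27, adjusted p = 0.212 in limma). Rbp3 may likewise stand for Rbp4, and 1 of the 2 calls of the set rests on Rbp3. All 33 genes passed the filter on low values, an intensity of at least 15 on at least 3 arrays. Total RNA came from 3 samples of spleens of Tlx1 homozygous embryos and 3 samples of spleens of Tlx1 heterozygous embryos, all at E13.5, on whole-transcript mouse arrays. Tlx1 encodes a homeobox factor without which no spleen develops. The labels give zygosity but no allele name, and the homozygous samples are taken to carry only altered copies of Tlx1. Heterozygous embryos then carry it too, and no wild-type spleen was compared. It is not stated whether a sample was 1 spleen or a pool, so the p-values cover the spread among these samples alone, and that spread may be technical.

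In mid-gestation the fetal liver is the main site of blood formation, and its hepatoblasts already secrete albumin, alpha-fetoprotein, apolipoproteins, clotting factors and carrier proteins. The spleen rudiment is a small mesenchymal condensation beside the stomach and the dorsal pancreas. Several genes of the set are also known outside the liver. Ttr is made by cells of the pancreatic islets, Apoa4, Apob and Mttp by the epithelium of the intestine, and Afp by the yolk sac endoderm. Rbp3, which carries retinoids between cells of the retina, is known as a photoreceptor gene and not as a liver gene.

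The labels were checked against Tlx1 and against markers of the tissue. Tlx1 had intensities of 171, 209 and 200 in homozygous spleens, against 825, 706 and 719 in heterozygous spleens. That is a log2 fold change, homozygous minus heterozygous, of −1.95 ± 0.09 (SE; adjusted p = 1.3e-05 in limma). Whether its probe set lies inside the altered stretch was not tested. Of 10 listed regulators of spleen mesenchyme 9 had a probe set of their own, and all 9 passed the filter. Their summed intensity lay between 13525 and 13950 on homozygous arrays and between 14507 and 14756 on heterozygous arrays. Meis1 and Tcf21 made up much of that sum, which hides larger changes of single genes in both directions. Of the 9 genes 2 were higher and 5 lower, at an adjusted p below 0.05 in limma. Beside Tlx1, Nkx2-5 (log2 fold change −1.36) and Nkx3-2 (−1.23) were lower. Ebf2 was higher, with a mean intensity of 110 in homozygous against 54.5 in heterozygous spleens. Medians over all probe sets lay between 106 and 110 units.

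Few genes of the liver set were called. Of the 33 genes 2 were called higher in homozygous spleens, Rbp3 and Cps1, and none was called lower, at an adjusted p below 0.05 in limma. That is 6.06% of the set, while 17.0% of all genes tested were called, 10.4% as higher and 6.56% as lower. At an unadjusted p below 0.05 there were 10 of the 33 genes, against 34.1% of all genes. Groups did not overlap for 7 of the 33 genes, against 38.3% of all genes. Estimates lay above 0 for 21 genes and below 0 for 12, with a median log2 fold change of 0.07, beside 0.02 over all genes tested. Under cyclic loess between arrays the split was 17 above and 16 below. The summed intensity of the 33 genes was 4629, 3043 and 4754 on the homozygous arrays and 4053, 3921 and 3099 on the heterozygous arrays. The lowest total of each group was thus about the same, and the groups overlapped. Much of these totals came from Ttr, Alb, Afp, Trf, Serpina6 and Ambp. In bulk tissue, fewer cells of a type and less RNA per cell cannot be told apart.

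**Figure D1:**
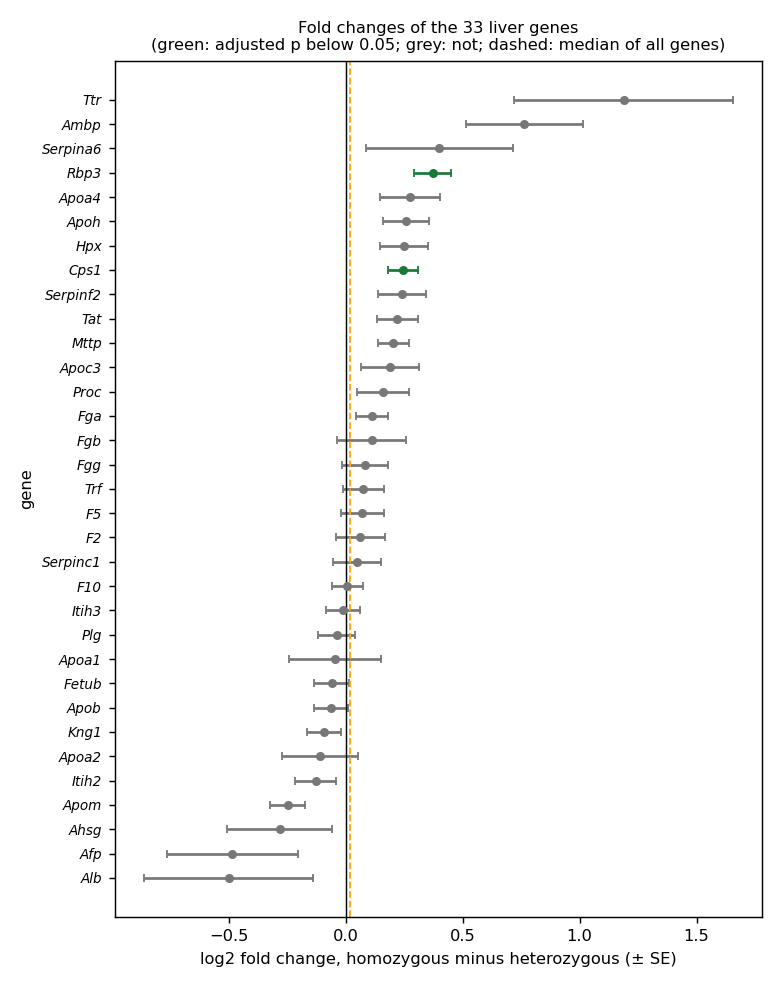
Log2 fold change, homozygous minus heterozygous, of each of the 33 liver genes (horizontal axis, points with SE from limma), with genes down the vertical axis in order of their estimate. Rbp3 and Cps1 are the 2 genes called, and the widest error bars belong to Ttr, Alb, Serpina6 and Afp.

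The set holds the defining products of fetal liver, albumin and alpha-fetoprotein, whose genes Alb and Afp neighbour each other on chromosome 5. Both followed the same arrays, together with Ahsg (fetuin A, a carrier of the blood) and Apoa1 (the main protein of high-density lipoprotein). The stretches before the starts of these 4 genes are shown as examples of genes with a like array pattern, chosen after their values were seen. Apoa2, which was as like Alb as they were, has 2 starts in the promoter table, with a match to TGTTTAC and none to TGTTTGC, and is not shown. They are 150 bases each on the plus strand of GRCm38.p6, from the RefSeq promoter table, and end at the base before the annotated start. Capitals mark matches on either strand to GTTAAT, a core of the motif of HNF1, and to TGTTTGC or TGTTTAC, cores of the motif of forkhead factors. HNF1 and forkhead factors of the Foxa family are known regulators of liver genes.
Alb, chr5:90460720-90460869: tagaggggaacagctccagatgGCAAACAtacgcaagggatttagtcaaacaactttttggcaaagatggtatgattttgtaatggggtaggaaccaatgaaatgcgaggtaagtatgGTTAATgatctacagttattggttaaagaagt
Afp, chr5:90490564-90490713: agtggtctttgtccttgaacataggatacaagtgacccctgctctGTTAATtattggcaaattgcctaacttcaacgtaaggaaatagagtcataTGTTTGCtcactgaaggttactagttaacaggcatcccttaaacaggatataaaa
Ahsg, chr16:22891865-22892014: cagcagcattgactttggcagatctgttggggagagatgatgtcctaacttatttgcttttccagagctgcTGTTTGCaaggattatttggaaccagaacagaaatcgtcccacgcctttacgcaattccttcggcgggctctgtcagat
Apoa1, chr9:46228480-46228629: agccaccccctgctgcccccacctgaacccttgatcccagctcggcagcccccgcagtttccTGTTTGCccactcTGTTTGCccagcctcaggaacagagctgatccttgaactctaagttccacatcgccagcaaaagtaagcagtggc

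The motifs were chosen after these promoters had been read, so the matches are a description without a test. The search covered 250 bases before and 50 after each start, on both strands, and no match of 1 motif overlapped one of another in the stretches shown. Promoters of 25 of the 33 genes were in the table. A gene was counted if any of its starts had a match, while the shares of all promoters count each start, so the measures differ. TGTTTGC was found for 7 of these 25 genes (Afp, Ahsg, Alb, Ambp, Apoa1, Apob and Fetub), and in 5.07% of all 32851 promoters. GTTAAT was found for 5 (Afp, Alb, F2, Fga and Fgb), and in 7.1% of all promoters. TGTTTAC was found for 3 (Apoa2, Apoh and Fetub), and in 3.65% of all promoters. Only Alb and Afp held matches to both an HNF1 and a forkhead core.

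Alb was high on 3 arrays that cross the genotypes. Its intensity was 323, 231 and 583 on homozygous arrays 1, 2 and 3, against 620, 652 and 306 on heterozygous arrays 1, 2 and 3. Homozygous array 3 and heterozygous arrays 1 and 2 were thus bright, the other 3 arrays lay between 231 and 323, and the groups overlapped. The means were 379 ± 183 in homozygous and 526 ± 191 in heterozygous spleens (SD, n = 3 each), and the log2 fold change was −0.50 ± 0.36 (SE; adjusted p = 0.364 in limma).

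Afp had intensities of 310, 205 and 361 on the homozygous arrays, against 508, 489 and 254 on the heterozygous arrays. Heterozygous arrays 1 and 2 were the brightest and homozygous array 2 the dimmest, and heterozygous array 3 lay inside the homozygous range. The log2 fold change was −0.49 ± 0.28 (SE; adjusted p = 0.257). Without heterozygous array 3 it was −0.81, with an adjusted p = 0.0394 in limma.

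Ahsg ranked the 6 arrays in the same order as Alb, with intensities of 71.9, 49.8 and 83.9 on the homozygous arrays and 85.0, 106 and 60.3 on the heterozygous arrays. Its log2 fold change was −0.28 ± 0.23 (SE; adjusted p = 0.412). Over the 6 arrays the Pearson correlation with Alb was 0.95 for Afp, 0.94 for Ahsg, 0.94 for Apoa2 and 0.90 for Apoa1, all from the same 6 libraries. Deviations from the group means gave 0.94, 0.93, 0.95 and 0.96 for the same 4 genes, so the likeness was also present within genotypes. These genes were picked for their likeness, and no test is attached to it.

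**Figure D2:**
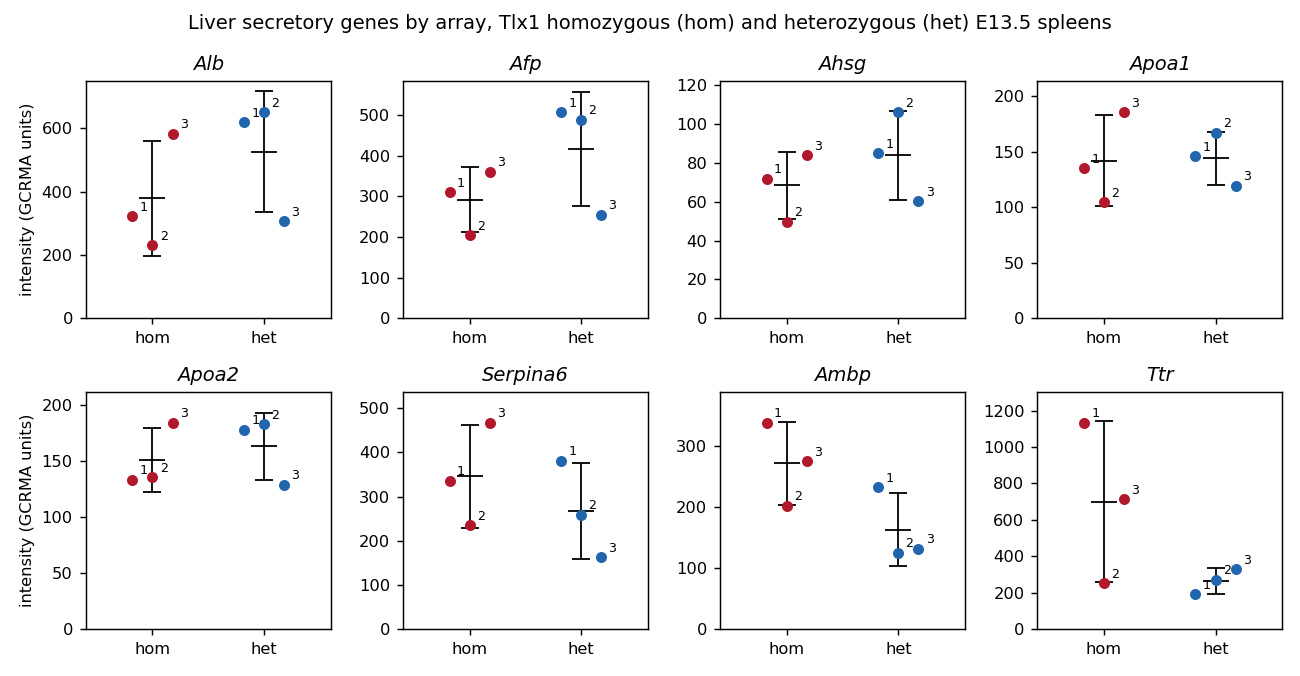
Intensity (vertical axis, GCRMA units, linear from 0) of 8 liver genes on each array, homozygous on the left and heterozygous on the right, with the replicate number beside each point and bars for mean and SD. Homozygous array 2 and heterozygous array 3 are low for Alb, Afp and Ahsg, while Ttr is highest on homozygous arrays 1 and 3.

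Transthyretin, the carrier of thyroid hormone and of retinol-binding protein, did not follow Alb. Ttr had intensities of 1134, 250 and 712 on the homozygous arrays, against 191, 271 and 328 on the heterozygous arrays. Homozygous arrays 1 and 3 lay above every heterozygous array, and homozygous array 2 lay inside the heterozygous range. The log2 fold change of 1.19 ± 0.47 (SE) was the highest estimate of the set and did not pass (adjusted p = 0.113 in limma). Without homozygous array 2 it was 1.80, with an adjusted p = 0.00635, and with array weights it was 1.54, with an adjusted p = 0.0371.

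The array pattern of Ttr was close to that of some genes of the endocrine pancreas and of some liver genes. Over the 16 tested genes of the endocrine pancreas its Pearson correlation ran from 0.49 to 0.98, with a median of 0.81. Over the other 32 liver genes it ran from −0.55 to 0.98, with a median of 0.43, and 114 of 18677 genes outside the set had one above 0.95. In wider lists it reached 0.95 among 58 other secreted liver genes (median 0.54) and 0.95 among 34 liver enzymes and transporters (median 0.58). The median over 21 exocrine pancreas genes was 0.65. For Ttr the Pearson correlation over the 6 arrays was 0.98 with Chga, a protein of secretory granules, 0.94 with the islet peptide gene Iapp and 0.89 with the glucagon gene Gcg. With Alb it was −0.13. Gcg had intensities of 3751, 761 and 2728 on the homozygous arrays, against 98.0, 659 and 1032 on the heterozygous arrays. Its log2 fold change was 2.28 ± 0.85 (SE; adjusted p = 0.0986). Chga, Iapp and Gcg were chosen after their values were seen. The summed intensity of the 16 endocrine pancreas genes, all of which passed the filter, was 5620, 2279 and 4358 on the homozygous arrays and 1299, 1851 and 2390 on the heterozygous arrays. Gcg made up much of that sum. The other 15 genes summed to 1869, 1519 and 1630 on the homozygous arrays and 1201, 1193 and 1358 on the heterozygous arrays, without overlap. Isl1 made up part of these sums, at 648, 630 and 559 on the homozygous arrays and 365, 412 and 467 on the heterozygous arrays. The groups overlapped in the list's median difference from the 6-array mean, at −0.12 on homozygous array 2 and −0.05 on heterozygous array 3. The part of islet cells in the level of Ttr was not tested.

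**Figure D3:**
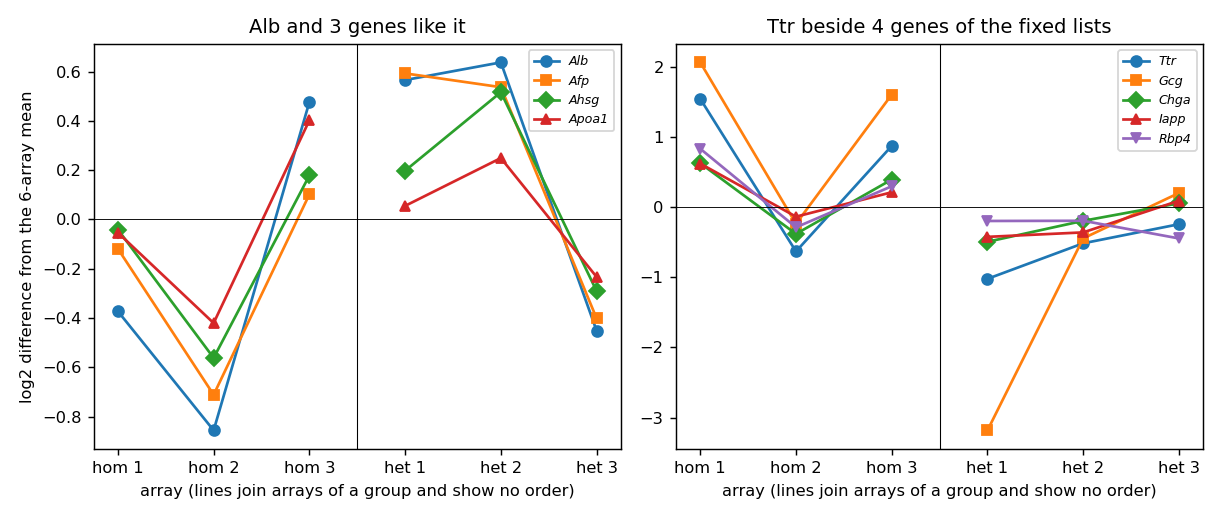
Difference of each array from the mean of the 6 arrays (vertical axis, log2 of intensity + 1) for Alb, Afp, Ahsg and Apoa1 on the left and for Ttr, Gcg, Chga, Iapp and Rbp4 on the right, with homozygous before heterozygous arrays. Alb and its companions are low on homozygous array 2 and heterozygous array 3, and Ttr is high on homozygous arrays 1 and 3 with the islet genes.

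Among the other carriers, Ambp and Serpina6 also varied widely between arrays. Ambp encodes the precursor of alpha-1-microglobulin and bikunin. It had intensities of 339, 202 and 276 in homozygous spleens, against 232, 125 and 132 in heterozygous spleens. Heterozygous array 1 lay above homozygous array 2, so the groups overlapped. The log2 fold change was 0.76 ± 0.25 (SE; adjusted p = 0.0671), and Ambp passed in 6 of the 18 other settings. Its adjusted p was 0.0162 without heterozygous array 1 and 0.0367 without homozygous array 2. Serpina6, the binding globulin of corticosteroids, had intensities of 336, 235 and 467 in homozygous spleens, against 381, 259 and 163 in heterozygous spleens. Homozygous array 3 was the brightest and heterozygous array 3 the dimmest, and the groups overlapped. The log2 fold change of Serpina6 was 0.40 ± 0.31 (SE; adjusted p = 0.407).

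The remaining carriers were steadier. Transferrin (Trf), the iron carrier of plasma, had intensities of 405, 341 and 409 in homozygous spleens, against 386, 370 and 338 in heterozygous spleens, a range of 1.21-fold over all arrays. Hemopexin (Hpx), which binds free heme, was at 82.6, 63.4 and 76.1 in homozygous spleens, against 57.9, 60.4 and 67.4 in heterozygous spleens, and its correlation with Ttr was 0.98 over the 6 arrays. Its log2 fold change was 0.25 ± 0.10 (SE; adjusted p = 0.130), and without homozygous array 2 it passed (0.35, adjusted p = 0.0299). Fetub, the sister gene of Ahsg in the fetuin family, stayed between 26.6 and 31.6 on all arrays.

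Rbp3 was called higher, although it is no liver gene by its known role. Its intensity was 46.8, 45.6 and 47.9 in homozygous spleens, against 39.4, 36.2 and 32.4 in heterozygous spleens, without overlap. The log2 fold change was 0.37 ± 0.08 (SE; adjusted p = 0.0169 in limma). These intensities are low, and background calls were not used here, so they are no proof of expression. The call was lost after cyclic loess (adjusted p = 0.0814) and with the level of Y-linked genes as a covariate (adjusted p = 0.101). It was also lost without homozygous array 1 (adjusted p = 0.0616), without homozygous array 3 (0.0541) and without heterozygous array 2 (0.0508), with estimates of 0.36 to 0.38.

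Apolipoproteins package lipid for transport, and none of the 8 genes of lipid transport was called. Apoa1 had intensities of 135, 104 and 186 in homozygous spleens, against 146, 167 and 119 in heterozygous spleens. Apoa2, its partner in high-density lipoprotein, was at 133, 136 and 185 in homozygous spleens, against 178, 183 and 129 in heterozygous spleens. For both, homozygous array 3 and heterozygous arrays 1 and 2 were the 3 brightest, as for Alb, and the log2 fold changes were near 0, at −0.05 ± 0.20 and −0.11 ± 0.16 (SE). Apoa1 turned sign without homozygous array 2 (0.15) and without heterozygous array 2 (0.07).

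Apoa4 and Apoc3 stand beside Apoa1 in the gene order of chromosome 9, with Apoc3 in the middle, yet they showed another array pattern. Apoa4 was at 95.4, 72.6 and 93.2 in homozygous spleens, against 75.2, 61.1 and 78.8 in heterozygous spleens. Apoc3, an inhibitor of lipoprotein lipase, was at 64.5, 49.0 and 59.3 in homozygous spleens, against 47.6, 45.0 and 58.6 in heterozygous spleens. Their correlation with each other was 0.91 over the 6 arrays, while with Apoa1 it was 0.10 for Apoa4 and −0.01 for Apoc3. Their correlation with Ttr was 0.82 and 0.86 in the same order. Apoa4 had a log2 fold change of 0.27 ± 0.13 (SE; adjusted p = 0.164) and Apoc3 one of 0.19 ± 0.12 (SE; adjusted p = 0.315). Without homozygous array 2 Apoa4 passed (0.40, adjusted p = 0.0440).

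Apob, the structural protein of low-density lipoprotein, stayed between 45.5 and 53.4 on all arrays. Apoh, a phospholipid-binding glycoprotein, was at 34.6, 35.4 and 35.4 in homozygous spleens, against 25.6, 34.4 and 28.4 in heterozygous spleens. The groups of Apoh did not overlap, and its log2 fold change was 0.26 ± 0.10 (SE; adjusted p = 0.108), with a call without heterozygous array 2 (0.37, adjusted p = 0.0312). Apom, which carries sphingosine 1-phosphate, was the 1 gene with a non-overlapping lower level, at 36.1, 33.6 and 37.6 in homozygous spleens, against 43.2, 45.5 and 39.5 in heterozygous spleens. It had a log2 fold change of −0.25 ± 0.08 (SE) and an adjusted p = 0.0536, close to the threshold. It passed after cyclic loess (−0.35, adjusted p = 0.0229), with array weights (−0.26, adjusted p = 0.0288) and without heterozygous array 3 (−0.30, adjusted p = 0.0431). Mttp, which loads lipid onto Apob, was at 95.8, 96.4 and 104 in homozygous spleens, against 85.4, 81.5 and 90.1 in heterozygous spleens, without overlap (log2 fold change 0.20 ± 0.07, SE; adjusted p = 0.0702).

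None of the 11 genes of clotting and its inhibitors was called, with log2 fold changes from −0.09 (Kng1) to 0.24 (Serpinf2). The fibrinogen chains, which together form the clot, differed in range. Fgb was at 93.6, 66.9 and 100.4 in homozygous spleens, against 74.9, 90.0 and 74.0 in heterozygous spleens, with homozygous array 2 the dimmest and homozygous array 3 the brightest. Fga stayed between 37.9 and 44.9 and Fgg between 22.7 and 29.7. The groups of Fga did not overlap, at 44.9, 43.3 and 44.9 in homozygous spleens, against 42.8, 42.4 and 37.9 in heterozygous spleens. Its log2 fold change was 0.11 ± 0.07 (SE), with an adjusted p = 0.278 in limma. A dimmer probe set of Fga gave 42.3, 39.3 and 38.4 in homozygous spleens, against 35.5, 34.4 and 37.1 in heterozygous spleens, also without overlap. Serpinf2, the inhibitor of plasmin, was at 168, 144 and 188 in homozygous spleens, against 147, 145 and 128 in heterozygous spleens (log2 fold change 0.24 ± 0.10, SE; adjusted p = 0.138), and passed without homozygous array 2 (0.34, adjusted p = 0.0393). Prothrombin (F2) was at 60.7, 53.7 and 72.5 in homozygous spleens, against 60.5, 60.7 and 56.3 in heterozygous spleens. Factor V (F5), factor X (F10), antithrombin (Serpinc1), plasminogen (Plg), protein C (Proc) and kininogen (Kng1) each spanned less than 1.5-fold over the 6 arrays. The log2 fold changes of Serpinc1 (0.05) and F10 (0.01) were below 0 after cyclic loess, at −0.07 and −0.10.

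The inter-alpha-trypsin inhibitor heavy chains, which link to hyaluronan in the matrix, had estimates below 0 and were not called. Itih2 was at 61.3, 55.4 and 65.1 in homozygous spleens, against 72.9, 64.4 and 61.8 in heterozygous spleens (log2 fold change −0.13 ± 0.09, SE). Itih3 was at 68.9, 69.1 and 69.2 in homozygous spleens, against 76.4, 64.7 and 68.4 in heterozygous spleens (−0.01 ± 0.07, SE).

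Enzymes inside the cell had slightly higher estimates. Cps1, the mitochondrial enzyme that starts the urea cycle in liver and intestine, had intensities of 48.5, 43.6 and 48.3 in homozygous spleens, against 39.1, 39.9 and 39.0 in heterozygous spleens. The groups did not overlap, and the log2 fold change was 0.24 ± 0.07 (SE; adjusted p = 0.0367 in limma). The call was lost in 12 of 17 other settings, among them every refit without 1 array except that without homozygous array 2 (adjusted p = 0.0817 to 0.121 in the 5 that lost it). Tat, which breaks down tyrosine, was at 59.3, 51.8 and 65.4 in homozygous spleens, against 49.2, 51.3 and 50.02 in heterozygous spleens, with groups that did not overlap (0.22 ± 0.09, SE; adjusted p = 0.113). Without homozygous array 2 Tat passed (0.31, adjusted p = 0.0270).

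**Figure D4:**
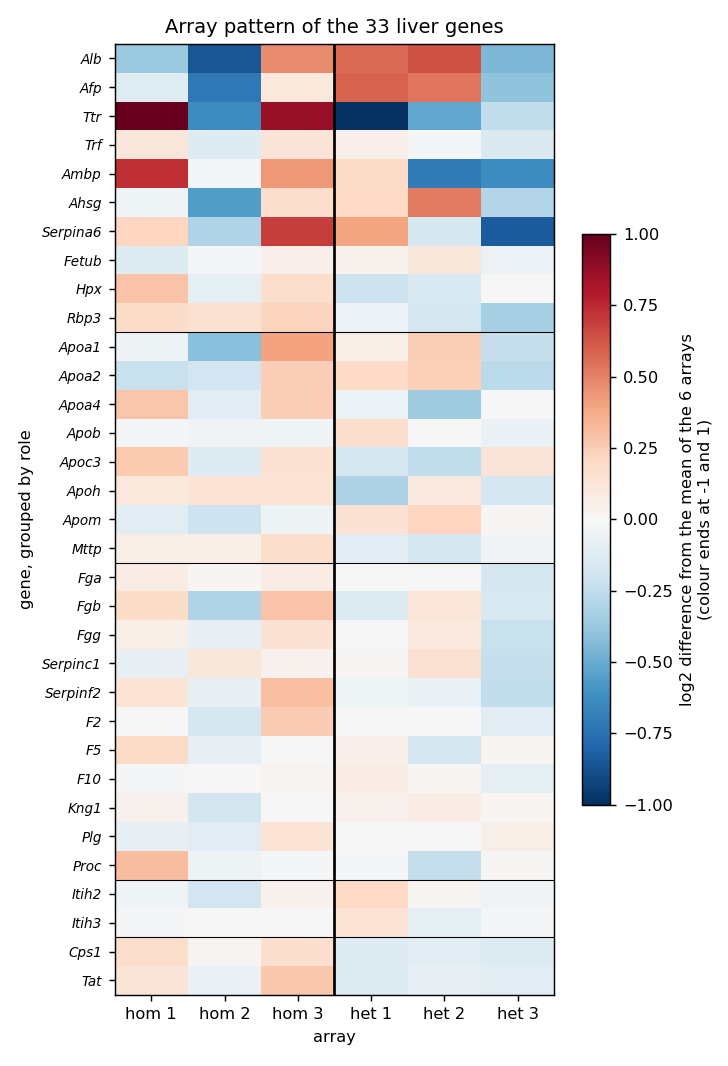
Difference of each array from the mean of the 6 arrays (colour, log2 of intensity + 1) for the 33 liver genes in rows, grouped by role, with homozygous arrays in the left columns and heterozygous arrays in the right columns. The columns of homozygous array 2 and heterozygous array 3 are mostly blue, and that of homozygous array 3 is mostly red.

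Over the whole set, arrays of 1 genotype stood apart from each other. Within the homozygous group array 2 was the dimmest for 25 of the 33 genes (75.8%), as it was for 42.1% of all genes tested. Array 3 was the brightest homozygous array for 21 of the 33 (63.6%), against 41.6% of all genes. Within the heterozygous group array 3 was the dimmest for 21 of the 33 (63.6%), against 31.3% of all genes. Heterozygous array 3 was the brightest of all 6 arrays for none of the 33 genes, against 15.5% of all genes. The median difference from the 6-array mean was 0.06, −0.09 and 0.14 on homozygous arrays 1, 2 and 3, and 0.01, −0.00 and −0.13 on heterozygous arrays 1, 2 and 3 (log2).

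The spread inside groups was wide for a part of the set. The within-group SD on the log2 scale lay above the 95th percentile of all genes tested, 0.21, for 9 of the 33 genes (27.3%). It was 0.84 for Ttr, 0.64 for Alb, 0.56 for Serpina6, 0.49 for Afp, 0.44 for Ambp and 0.39 for Ahsg. The same 6 genes spanned more than 2-fold over the 6 arrays (18.2% of the set), as did 1.29% of all genes. The median range was 1.34-fold in the set and 1.25-fold over all genes. Of the 33 genes 21 stayed below 100 units on every array.

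The 5 genes outside the set whose array pattern was most like the median pattern of the set were Snrpa, Tmem214, Tapbp, Slc46a1 and Zdhhc8. Each had a Pearson correlation of 0.99 with it over the 6 arrays. They spanned only 1.11-fold to 1.19-fold, and 73 of 18677 genes had a correlation above 0.95, so the likeness singles out no gene.

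Other liver genes, from wider lists, were called at shares from 11.8% to 31.6% by list, beside 17.0% of all genes tested. Of 58 tested genes of other secreted liver proteins 7 were higher and 2 lower (15.5%), with a median log2 fold change of 0.16. Among the called genes the largest changes were those of Habp2, a protease that binds hyaluronan (0.72 ± 0.17, SE), Serpina10, an inhibitor of factor X (0.52 ± 0.15), the iron hormone gene Hamp (0.41 ± 0.09) and Mst1, which encodes macrophage-stimulating protein (0.39 ± 0.07). Hamp was dim, at 20.6, 17.98 and 16.4 in homozygous spleens, against 14.02, 12.8 and 13.52 in heterozygous spleens. Rbp4, the retinol-binding protein that Ttr carries, was at 246, 113 and 170 in homozygous spleens, against 120, 120 and 101 in heterozygous spleens, and did not pass (0.56 ± 0.23, SE; adjusted p = 0.131). Rbp4 was chosen after its values were seen.

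The median difference of these 58 genes from the 6-array mean was 0.15, −0.02 and 0.09 on the homozygous arrays, against −0.04, −0.11 and −0.07 on the heterozygous arrays (log2). The groups did not overlap in this median, nor in that of the 34 enzymes or the 19 transcription factors that follow. They did overlap in that of the 33 genes. These medians rest on the deposited scaling alone, and the wider lists were not examined under other settings. Of 34 liver enzymes and transporters 4 were higher and none lower (median 0.11), led by Cyp4a14 (0.51), the glucose transporter gene Slc2a2 (0.47), Amdhd1 (0.38) and the bile salt pump gene Abcb11 (0.37). Slc2a2 is also a gene of islet cells. Cyp4a14 stayed between 17.1 and 30.3 units on all arrays, Abcb11 between 18.3 and 26.9 and Amdhd1 between 30.3 and 49.6. Such low intensities are no proof of expression. Of 19 transcription factors known in liver 5 were higher and 1 lower (31.6%, median 0.14). Tbx3 (0.80), Nr0b2 (0.62), Onecut1 (0.57), Foxa1 (0.42) and Foxa2 (0.31) were higher and Hhex (−0.46) was lower, and all of them are also expressed outside the liver. Foxa1 and Foxa2 go beyond the naming rule and were added after their values were seen. Hnf4a, a nuclear receptor that defines hepatocytes among other epithelia, was at 106, 82.5 and 89.5 in homozygous spleens, against 77.0, 74.6 and 72.7 in heterozygous spleens (0.30 ± 0.09, SE; adjusted p = 0.0556).

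Markers of other tissues near the spleen were set beside the liver set, and no difference between lists was tested. Of 21 exocrine pancreas genes 6 were higher and 1 lower (median 0.28), and their summed intensity lay between 3161 and 3584 on homozygous arrays and between 1556 and 2411 on heterozygous arrays. Cpa1, a digestive carboxypeptidase, was at 1783, 1610 and 1600.4 in homozygous spleens, against 861, 307 and 436 in heterozygous spleens. Much of the difference between these sums came from Cpa1. The 1 lower gene was Cpb1 (−0.35), at 65.8, 59.6 and 55.5 in homozygous spleens, against 77.5, 75.9 and 76.9 in heterozygous spleens. Heterozygous array 1, which had the highest Cpa1 level of its group, had the lowest Gcg level of all 6 arrays. Of 16 endocrine pancreas genes 2 were higher and none lower (Isl1 at 0.56 and Nkx6-1 at 0.42, with a median of 0.35). Of 23 genes of stomach and general epithelium 6 were higher and 1 lower (median 0.27), led by Cldn6 (0.88), with the fall in Sox9 (−0.76). Of 18 genes of intestine and yolk sac endoderm 3 were higher and 1 lower (median 0.19), with Fabp2 at 0.62. Fabp2 was dim, between 16.2 and 28.9 units on all arrays. The part of these tissues in the liver set was not tested.

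Blood cells are abundant in fetal liver, so erythroid genes were set beside Alb. Of 19 erythroid genes 7 were lower and none higher (median −0.36), and their summed intensity was 11240, 12012 and 12098 on the homozygous arrays, and 14340, 14664 and 15637 on the heterozygous arrays. Hbb-bh1, which encodes an embryonic globin, had a log2 fold change of −1.06 ± 0.11 (SE; adjusted p = 0.000763 in limma). Within the heterozygous group array 3 had the highest erythroid sum with the lowest Alb and Afp levels. Within the homozygous group array 3 had the highest erythroid sum, narrowly above array 2, with the highest Alb and Afp levels. Hbb-y made up much of these sums, at 8032, 8582 and 8627 on the homozygous arrays. The list's median difference from the mean of all arrays was −0.31, −0.12 and −0.14 on the homozygous arrays (log2). By that median homozygous array 2, with the lowest Alb and Afp levels, was highest of its group. Heterozygous array 3 was highest of its group by both measures. Whether the erythroid transcripts came from liver, spleen or circulating blood was not tested. Of 20 endothelium genes 16 were lower and none higher (median −0.40), led by Tek (−0.85). Of 16 macrophage genes 1 was higher, Marco (0.44), and none was lower (median 0.09). Of 9 mesothelium genes 1 was higher, Msln (0.47), and 1 lower, Wt1 (−0.33), and of the 9 spleen mesenchyme genes 2 were higher and 5 lower. These counts are a description, to be read beside the 17.0% of all genes called.

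**Figure D5:**
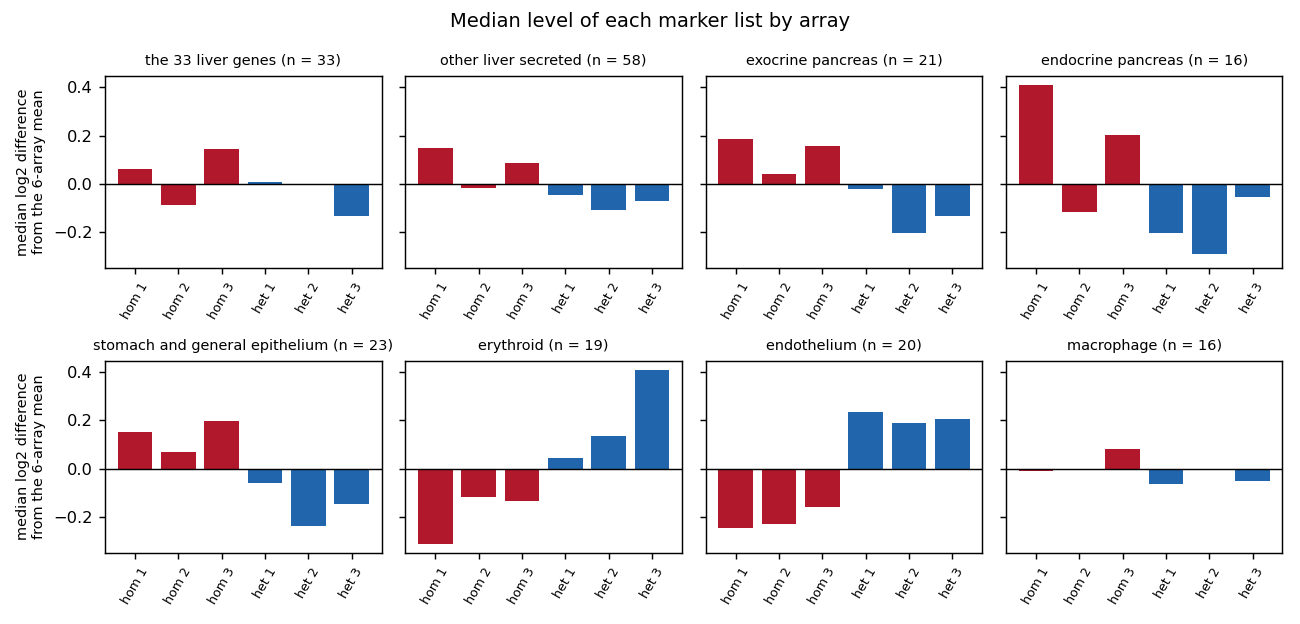
Median difference from the 6-array mean (vertical axis, log2 of intensity + 1) of 8 marker lists on each array, homozygous arrays left of heterozygous arrays. The homozygous medians lie below all heterozygous ones for the erythroid and endothelium lists and above them for the exocrine pancreas, epithelium and wider liver secreted lists, and the 33 liver genes have their low values on homozygous array 2 (−0.09) and heterozygous array 3 (−0.13).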

How the data were processed

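RNA of 6 spleen samples was measured on 6 arrays. The deposited values are intensities per probe set on a linear scale, made by the authors using GCRMA, as named in the submitters' processing notes. No source used here gives its version, probe set definition or build. GCRMA scales arrays to each other, so a change in total RNA cannot be seen. Of 35512 probe sets 21789 had 1 gene symbol, 1621 several and 12102 none in the platform annotation, and only the 21789 were used. Entrez identifiers were found in a RefSeq table for 21698 and changed no symbol. Genes were kept with log2(intensity + 1) of at least 4 on at least 3 arrays. The fit used limma 3.58.1 under R 4.3.3 (functions lmFit and eBayes, two-sided, Benjamini-Hochberg over 18710 genes, called at an adjusted p below 0.05), on all 6 arrays with no covariate. Fold changes refer to log2(intensity + 1), which pulls dim genes toward 0. The number of arrays limits the precision. The set, its members and all lists were chosen with earlier results of these data known. Named genes are all members and Tlx1. From each other list the rule took the called genes, at most 4 by size of change, or otherwise the 2 of lowest p. Not all genes that this rule took are named in the text. Hnf4a, Vtn, Hbb-y, Meis1 and Tcf21 are outside the rule, as are the genes marked as chosen or added after their values were seen. Genes most like the set's median pattern were the 5 with the highest correlation. The alternatives were other filters, scalings, variance models and probe set choices, a pseudocount of 16, array weights, a replicate block, a Y-linked covariate and refits without 1 array. The fit was tested on simulated data. Promoters came from RefSeq on GRCm38.p6.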

Additional observations from a re-analysis of the deposited data

How the results depend on the processing

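No setting gave more than 8 of the 33 genes as higher or more than 2 as lower. In refits without 1 array the count of higher genes ran from 0 to 8 and that of lower genes from 0 to 2. It was 0 higher without homozygous array 1 or 3, 1 without heterozygous array 2 or 3, 2 without heterozygous array 1 and 8 without homozygous array 2 (Rbp3, Cps1, Ttr, Ambp, Hpx, Apoa4, Serpinf2 and Tat). Afp and Apom, the 2 lower genes, appeared without heterozygous array 3. The count of higher genes was 1 after quantile normalization, after median centring and with a variance trend and robust fit, 0 with the Y-linked covariate and after cyclic loess, and 5 with array weights. Cyclic loess and array weights each gave 1 lower gene, Apom. The set's median was between 0.03 and 0.15 without 1 array and 0.0023 after cyclic loess. The cause of these shifts was not tested.

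Replicate numbers are not stated to pair the samples. Deviations of same-numbered arrays correlated at −0.01, 0.04 and −0.11, and those of other array pairs between −0.09 and 0.10. With 3 arrays per group these values cannot decide whether samples were paired. With the replicate block 3 of the 33 genes were higher (Rbp3, Ambp and Apoa4) and none lower, and 2091 of all genes were higher and 1072 lower, against 1951 and 1227 without it. Over all genes the refits without 1 array gave 699 to 2319 higher and 499 to 1244 lower, and the Y-linked covariate gave 1140 and 507.

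Of the 31 uncalled genes 10 turned sign somewhere, always uncalled. With the Y-linked covariate F10 was at −0.0288, Serpinc1 at −0.1371, Fgb at −0.0366, Fgg at −0.0601 and Itih3 at 0.0545. After cyclic loess F10 was at −0.1022, Serpinc1 at −0.0665, F2 at −0.0511 and F5 at −0.0265. With array weights F10 was at −0.0122 and Serpinc1 at −0.0191, and F10 was at −0.0120 after median centring and −0.0415 after quantile normalization. Without 1 array the ranges were −0.2608 to 0.1508 for Apoa1, −0.1115 to 0.0025 for Apob, −0.0384 to 0.0434 for F10, −0.0509 to 0.1625 for F2 and −0.0065 to 0.1312 for F5. They were −0.0036 to 0.2864 for Fgb, −0.0105 to 0.1509 for Fgg, −0.0643 to 0.0540 for Itih3, −0.1173 to 0.0092 for Plg and −0.0573 to 0.1363 for Serpinc1.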

Other observations

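Among genes with a range over 2-fold, the array pattern of Ttr was also shared by Pyy, a peptide hormone gene, with a Pearson correlation of 0.99 over the 6 arrays, and by the amino acid transporter gene Slc38a5 at 0.98. Slc38a5 had intensities of 1428, 336 and 628 in homozygous spleens, against 206, 305 and 413 in heterozygous spleens. Pyy had 422, 148 and 268 in homozygous spleens, against 101, 135 and 164 in heterozygous spleens. Neither passed the test (adjusted p = 0.110 for Slc38a5 and 0.0800 for Pyy in limma), and both, like Serpina1c, were chosen after their values were seen. Serpina1c, an antitrypsin gene of a family of near-identical copies, was at 379, 139 and 233 in homozygous spleens, against 207, 57.9 and 103 in heterozygous spleens. Its correlation over the 6 arrays was 0.64 with Ttr and −0.15 with Alb. It did not pass (1.10 ± 0.46, SE; adjusted p = 0.132).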
